A study of Mus musculus with 8 samples.

Results

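Of the 23983 genes compared between both genotypes, 29 encode proteins of the synaptic vesicle or of the active zone, the patch of presynaptic membrane where vesicles fuse. They were taken by name: the 3 synapsins, 3 Rab3 GTPases, 6 vesicle membrane proteins, 4 SNARE proteins, 2 complexins, 3 Munc13 priming factors and 8 scaffold proteins of the active zone. All 29 were present. For a gene with more than 1 transcript cluster (the set of probes summarised for a gene) the brightest cluster over the 8 arrays stood for the gene, and 27 members had only 1.

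Prefrontal cortex, dissected at the cingulate cortex, was taken from male mice 12 weeks old, 4 of them labelled Mll1 Ko and 4 labelled wild-type. Both groups were at rest under standard housing, and each mouse had been kept singly for the last week. Mll1, now Kmt2a, is a methyltransferase for lysine 4 of histone H3. The series' title calls the enzyme neuronal, but the sources used here give no strain, allele, deleted part or Cre driver, which limits what the group stands for.

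Kmt2a itself had a log2 signal of 10.42, 10.38, 10.29 and 10.30 on the arrays labelled Mll1 Ko, against 9.94, 10.13, 10.12 and 10.06 on wild-type arrays. It was higher by 0.285 ± 0.0565 (SE, limma, adjusted p = 0.0142), so this cluster, which may lie outside the deleted part, does not check the labels. The groups are therefore named as labelled, and each direction below rests on that. The values are the authors' RMA log2 signals, on which a difference of 1 is a doubling, and differences are arrays labelled Mll1 Ko minus wild-type. Array medians lay at 8.23 to 8.25 on the arrays labelled Mll1 Ko and at 8.26 to 8.29 in wild-type. The leading principal component held 42.7% of the variance, with arrays labelled Mll1 Ko at 9.19 to 13.62, wild-type replicate 1 at -20.33 and the other wild-type arrays at -8.19 to -7.52. The next component set wild-type replicate 4 (-19.24) away from all other arrays (-1.01 to 8.12).

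Synaptic vesicles store transmitter, dock at the active zone, are primed for fusion and release their content when calcium enters the terminal. Synapsins tether the reserve vesicles, Rab3 proteins mark vesicles for docking, and RIM and Munc13 proteins link docked vesicles to the release site and prime them. Fusion is driven by the SNARE proteins under control of complexins and synaptotagmins. In cortex most of these families are used by both excitatory and inhibitory neurons, while single members can differ between these classes. In whole tissue, fewer cells of a type and less RNA per cell cannot be told apart.

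Members of this machinery moved in both directions, and by little. Signal of 5 genes rose: Syngr3, Syn2, Rab3c, Syp and Erc2, by 1.13-fold to 1.29-fold. Signal of Rims3 fell, and 23 members did not pass the threshold (limma, adjusted p under 0.05 over all 23983 genes). Of all genes 5.15% rose and 5.69% fell, against 17.2% and 3.4% of the members. Bright genes as a class had more rises on these arrays: of the 4797 genes with a mean signal of 9.70 or more, among them 25 of the 29 members, 12.5% rose and 1.94% fell. The members' median difference was 0.050, against 0.065 for these bright genes and -0.032 for all genes. The mean over the 29 members was 10.95 to 10.97 on the arrays labelled Mll1 Ko and 10.86 to 10.97 on wild-type arrays, and wild-type replicate 1 gave the lowest of these values.

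**Figure D1:**
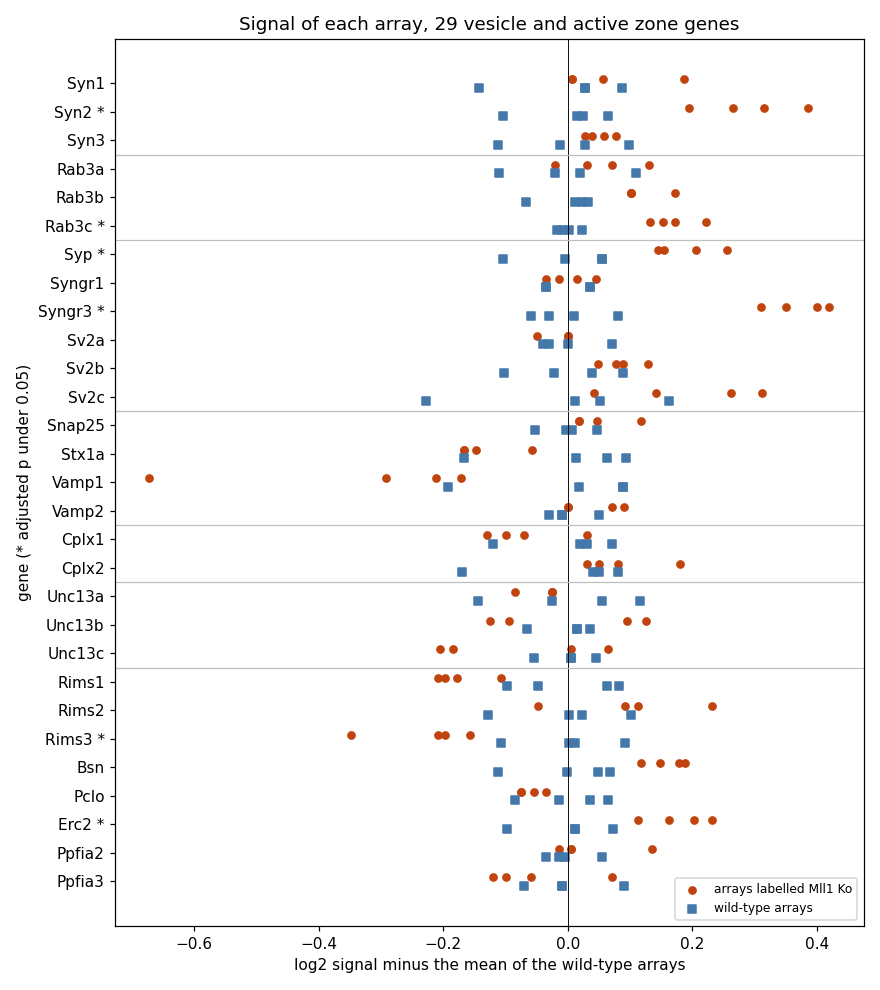
Each point is the log2 signal of 1 array minus the mean of the 4 wild-type arrays, for 29 genes ordered by role, with circles for arrays labelled Mll1 Ko and squares for wild-type. The circles lie clear of the squares on the right for 7 genes, among them Syngr3 and Syn2, and on the left for Rims1 and Rims3.

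Values of the arrays labelled Mll1 Ko and of wild-type did not overlap for 7 members that were higher and 2 that were lower, against 9.47% and 10.1% of all genes (19.5% in either direction). No such share was computed for the bright genes, which include 25 of the 29 members. The 7 were Syngr3, Syn2, Rab3c, Syp, Erc2, Rab3b and Bsn, and the 2 were Rims3 and Rims1.

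Of the brightest clusters in the deposited values, that of the vesicle membrane protein gene Syngr3 differed most, whereas Vamp1 did after quantile normalization and cyclic loess. Syngr3 encodes synaptogyrin 3, a 4-pass membrane protein of neuronal vesicles, and its signal was 11.48, 11.44, 11.55 and 11.53 on the arrays labelled Mll1 Ko, against 11.10, 11.21, 11.14 and 11.07 on wild-type arrays. Each array labelled Mll1 Ko exceeded each wild-type array. The rise was 0.37 ± 0.05 log2 (SE, n = 4 and 4), or 1.29-fold (limma, adjusted p = 0.00253). It passed under all 18 alternative settings, with differences of 0.295 to 0.402. Syngr1, the related synaptogyrin, differed by 0.0025 ± 0.0455 and its values overlapped.

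Syp, synaptophysin, is among the most abundant vesicle proteins and a standard marker of terminals. Its signal was 12.39, 12.40, 12.45 and 12.50 on the arrays labelled Mll1 Ko, against 12.14, 12.30, 12.30 and 12.24 on wild-type arrays. The groups did not overlap, with wild-type replicate 1 lowest. Syp rose by 0.19 ± 0.05 (limma, adjusted p = 0.0418). After quantile normalization, which gives all arrays 1 distribution of values, the difference was 0.099 and the call ended (adjusted p = 0.317). With 1 array left out the call held only without wild-type replicate 3 (adjusted p = 0.0476, against 0.0510 to 0.104 without each other array).

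The SV2 glycoproteins, which take part in vesicle priming, did not pass. Sv2a differed by -0.013 ± 0.046 and Sv2b by 0.085 ± 0.052. Sv2c had 9.47, 9.64, 9.37 and 9.59 on the arrays labelled Mll1 Ko, against 9.10, 9.34, 9.38 and 9.49 in wild-type. Its difference of 0.19 ± 0.08 was as large as that of Syp, but the groups overlapped (adjusted p = 0.141).

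Of the synapsins, which bind vesicles to each other and to actin, Syn2 rose. Its signal was 12.05, 12.00, 11.93 and 12.12 on the arrays labelled Mll1 Ko, against 11.75, 11.80, 11.76 and 11.63 on wild-type arrays. All 4 values of the arrays labelled Mll1 Ko lay above all 4 wild-type values. The difference was 0.29 ± 0.06, or 1.22-fold (limma, adjusted p = 0.0133). It passed without any 1 array (adjusted p = 0.0198 to 0.0387), but not after quantile normalization (0.238, adjusted p = 0.0798), after cyclic loess (0.216, adjusted p = 0.0627) or without wild-type replicates 1 and 4 together (0.245, adjusted p = 0.0628). Syn1 differed by 0.065 ± 0.062 and Syn3 by 0.050 ± 0.053, and both had overlapping groups.

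Rab3 proteins are small GTPases that ride on vesicles in the GTP-bound state and bind RIM. Rab3c had 11.04, 11.13, 11.08 and 11.06 on the arrays labelled Mll1 Ko, against 10.90, 10.93, 10.89 and 10.91 on wild-type arrays. The groups were tight and did not overlap. Rab3c rose by 0.17 ± 0.04 (limma, adjusted p = 0.0343), a call that ended after quantile normalization (0.104, adjusted p = 0.196) and without any 1 array other than wild-type replicate 4 (adjusted p = 0.0555 to 0.0954). Rab3b had 9.73, 9.73, 9.73 and 9.80, against 9.56, 9.66, 9.65 and 9.64 in wild-type. It did not overlap either, yet its difference of 0.12 ± 0.05 did not pass (adjusted p = 0.102). Rab3a, the main neuronal form, differed by 0.053 ± 0.057.

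The SNARE genes gave no call in the deposited values. Snap25 (0.050 ± 0.047) and Vamp2 (0.040 ± 0.046), which with syntaxin 1 form the fusion complex of most forebrain synapses, overlapped between the groups. Stx1a, syntaxin 1A, differed by -0.135 ± 0.062 (adjusted p = 0.151). Without wild-type replicate 4, where Stx1a was 9.97 against 10.15 to 10.23 on the other wild-type arrays, its difference was -0.191 and passed (adjusted p = 0.0346).

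Vamp1, synaptobrevin 1, is the alternative vesicle SNARE, known for its use at motor nerve endings. Its signal was 10.51, 10.39, 10.47 and 10.01 on the arrays labelled Mll1 Ko, against 10.49, 10.77, 10.77 and 10.70 on wild-type arrays. Replicate 4 of the arrays labelled Mll1 Ko was lowest, wild-type replicate 1 was the lowest of its group, and the groups overlapped there. The difference of -0.34 ± 0.10 just missed the threshold (limma, adjusted p = 0.0562). It passed after quantile normalization (-0.403, adjusted p = 0.0447) and cyclic loess (-0.407, adjusted p = 0.0411), but without replicate 4 of the arrays labelled Mll1 Ko it was -0.226 (adjusted p = 0.0780).

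Complexins, which clamp and then promote SNARE-driven fusion, did not pass singly. Cplx1 differed by -0.068 ± 0.057 and Cplx2 by 0.085 ± 0.063. Wild-type replicate 1 was the lowest array for Cplx2, at 10.47 against 10.68 to 10.72 on the other wild-type arrays.

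Munc13 proteins open syntaxin and prime vesicles. The brightest cluster of Unc13a, which encodes Munc13-1, gave 11.05, 11.05, 10.99 and 11.05 on the arrays labelled Mll1 Ko, against 11.05, 11.13, 11.19 and 10.93 in wild-type. The groups overlapped, at a difference of -0.040 ± 0.059. Unc13b differed by 0 ± 0.064 and the brightest cluster of Unc13c by -0.080 ± 0.065.

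The other clusters of Unc13a differed in the same direction as the brightest and by more, but clusters were not tested against each other. Cluster 10579548 had 8.36, 8.50, 8.44 and 8.32 on the arrays labelled Mll1 Ko, against 8.76, 8.65, 8.65 and 8.61 in wild-type. Cluster 10579550 had 9.19, 9.15, 9.24 and 9.14, against 9.36, 9.53, 9.42 and 9.28. In both the groups were apart. They fell by 0.26 ± 0.06 and by 0.22 ± 0.06 when all 25400 clusters with 1 gene name were fitted (limma, adjusted p = 0.0193 and 0.0399), where 5.09% of clusters rose and 5.40% fell. After quantile normalization both still passed (adjusted p = 0.0290 and 0.0226). The unmoderated test ended both calls (adjusted p = 0.0536 and 0.0882). Cluster 10579550 was also lost with centred arrays (0.0638) and with the replicate block (0.0589), and cluster 10579548 without wild-type replicates 1 and 4 (0.0630). With 1 array left out, cluster 10579548 passed except without replicate 1 of the arrays labelled Mll1 Ko (adjusted p = 0.0518), whereas cluster 10579550 passed only without wild-type replicate 4 (adjusted p = 0.0200, against 0.0669 to 0.0974). The files do not say which exons each cluster covers. None of the 7 clusters of Unc13c passed. The dimmest, at 6.13 on the arrays labelled Mll1 Ko and 5.61 in wild-type, lay below the lower quartile of every array (7.11 to 7.16 and 7.20 to 7.29), and its difference of 0.52 ± 0.16 was the widest (adjusted p = 0.0603).

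**Figure D2:**
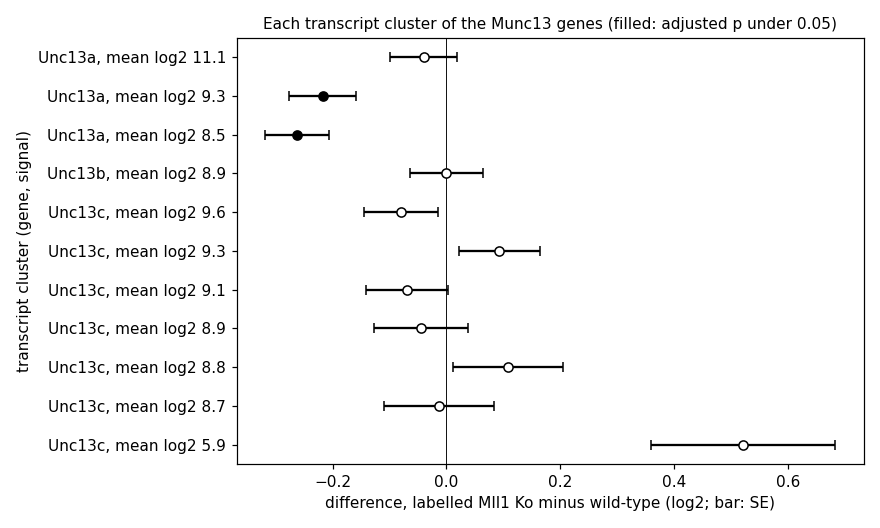
The difference in log2 signal, arrays labelled Mll1 Ko minus wild-type, is plotted with its SE for each transcript cluster of Unc13a, Unc13b and Unc13c, with filled points where adjusted p was under 0.05. The brightest Unc13a cluster sits at -0.040, and the dimmer pair lies at -0.22 and -0.26.

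Scaffolds of the active zone split. RIM proteins tether calcium channels, Rab3 and Munc13 at the release site. Rims3 encodes a short form, RIM3 gamma, that lacks the Rab3-binding part of the long RIM proteins, and had 9.70, 9.65, 9.66 and 9.51 on the arrays labelled Mll1 Ko, against 9.75, 9.95, 9.87 and 9.86 on wild-type arrays. All 4 arrays labelled Mll1 Ko were below the lowest wild-type array, which was replicate 1. Rims3 fell by 0.23 ± 0.06, or 1.17-fold (limma, adjusted p = 0.0343). The call held after quantile normalization (-0.281, adjusted p = 0.0129) and cyclic loess (-0.283, adjusted p = 0.0122). With 1 array left out it held without wild-type replicate 1 or 4 and ended without any other (adjusted p = 0.0520 to 0.0773).

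Rims1, the long RIM of most synapses, had 10.55, 10.48, 10.45 and 10.46 on the arrays labelled Mll1 Ko, against 10.61, 10.74, 10.72 and 10.56 in wild-type. The groups did not overlap, though their nearest arrays almost met. The difference of -0.17 ± 0.05 did not pass in the deposited values (adjusted p = 0.0602) and did after quantile normalization (-0.237, adjusted p = 0.0341), after cyclic loess (-0.243, adjusted p = 0.0212) and without wild-type replicate 4 (-0.205, adjusted p = 0.0326). Rims2, the other long RIM, had a difference of 0.098 ± 0.068 and overlapping groups.

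Erc2, which encodes the RIM-binding scaffold CAST, rose. Its signal was 10.73, 10.76, 10.69 and 10.64 on the arrays labelled Mll1 Ko, against 10.43, 10.54, 10.60 and 10.54 in wild-type. The groups did not overlap. At 0.18 ± 0.05 the rise was just past the threshold (limma, adjusted p = 0.0494), and it ended after quantile normalization (0.117, adjusted p = 0.175) and without any 1 array other than wild-type replicate 3 (adjusted p = 0.0537 to 0.125).

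Bassoon and piccolo are the giant scaffolds that gather vesicles at the active zone. Bsn had 10.15, 10.09, 10.16 and 10.12 on the arrays labelled Mll1 Ko, against 10.02, 10.04, 9.97 and 9.86 in wild-type. It did not overlap, but its difference of 0.16 ± 0.05 did not pass (adjusted p = 0.0679). Pclo differed by -0.060 ± 0.048. The liprins Ppfia2 (0.033 ± 0.050) and Ppfia3 (-0.053 ± 0.057), adaptors that help assemble the active zone, overlapped between the groups.

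How the list read as a whole changed with the scaling of the arrays, and also with other settings given below. In the deposited values 5 members rose and 1 fell. After quantile normalization 1 rose (Syngr3) and 3 fell (Rims3, Rims1 and Vamp1), where 686 genes of all rose (2.86%) and 379 fell (1.58%), against 1236 and 1364 in the deposited values. Centring the arrays on their medians went the other way, with 6 members higher (Bsn added, adjusted p = 0.0335), none lower and a members' median of 0.082, where 1843 of all genes rose and 782 fell. Cyclic loess, a smooth correction of each array against the others along the signal range, gave the same 4 calls, with 3.11% and 1.82% of all genes. The members' median difference was then -0.016 and -0.019, and that of the 4797 bright genes was 0.008 and -0.002. Syngr3 and Rims3 were called in the same direction under these 3 scalings, but Rims3 was not with centred arrays (-0.195, adjusted p = 0.0600).

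**Figure D3:**
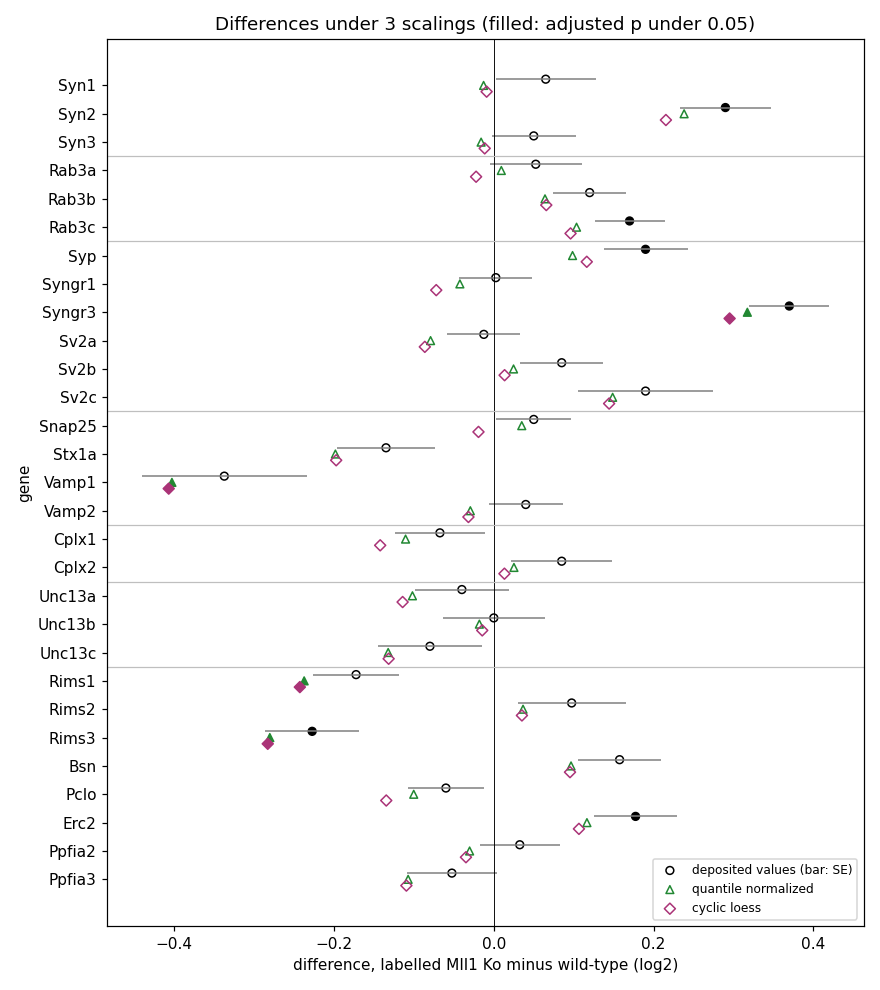
The difference in log2 signal, arrays labelled Mll1 Ko minus wild-type, is given for the 29 genes from the deposited values (circles, with SE), after quantile normalization (triangles) and after cyclic loess (diamonds). Filled symbols had an adjusted p under 0.05. Both corrections move the genes to the left, so that Syngr3 and Rims3 are filled in all 3 while Vamp1 and Rims1 are filled only after correction.

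**Figure D4:**
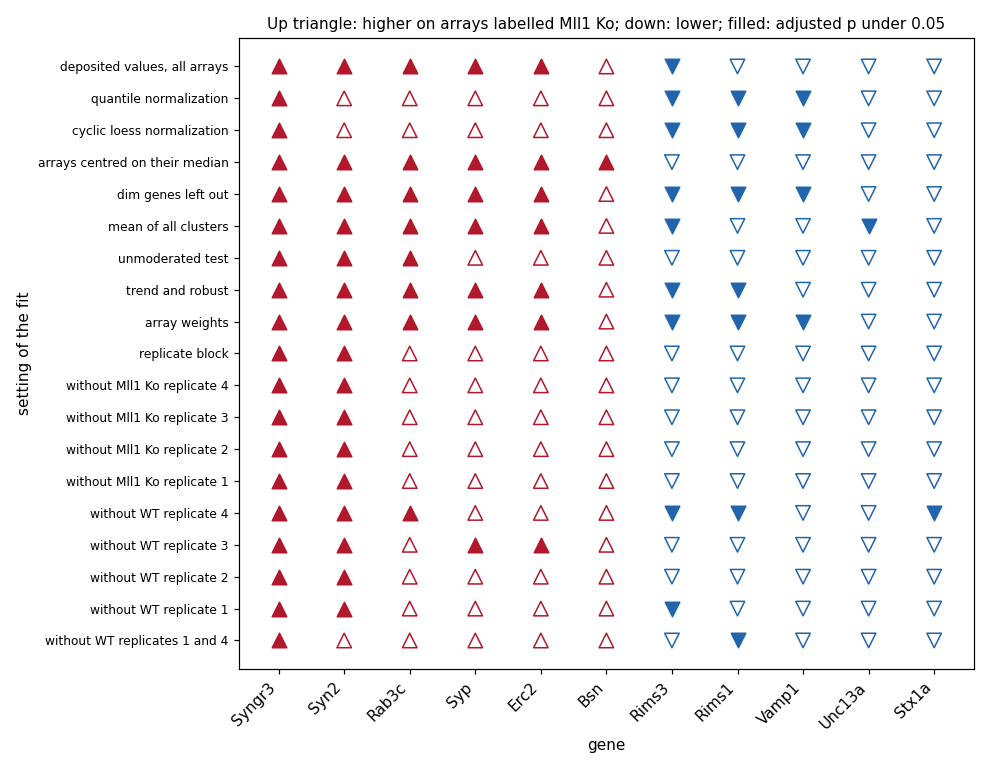
Rows are the settings of the fit, among them each array left out in turn, and columns are 11 genes. Triangles point up where signal was higher on the arrays labelled Mll1 Ko and down where it was lower, and are filled at an adjusted p under 0.05. Syngr3 is filled in every row, Syn2 in 15 of the 18 alternatives and Rims3 in 8.

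Relatives of a family were next set against each other on the same array, which takes out whatever both share there. The distance between 2 clusters includes their probes, so only its change between groups is read, and no test is given. Of 19 pairs in 9 families, 7 had distances that did not overlap between the groups. The pairs share genes, and no share over other gene pairs was computed, so the count is a description. Syngr3 minus Syngr1 was -0.25 ± 0.06 on the arrays labelled Mll1 Ko and -0.62 ± 0.03 in wild-type (SD, n = 4 each). Syn2 minus Syn3 was 1.98 ± 0.10 and 1.74 ± 0.05. Against Syn1 the shift of Syn2 was nearly as large, at 0.225, but the groups overlapped.

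Distances to Rims2 changed for both other RIM genes. Rims3 minus Rims2 was -0.55, -0.48, -0.45 and -0.46 on the arrays labelled Mll1 Ko, against -0.14, -0.17, -0.17 and -0.16 in wild-type. That is a shift of -0.325, with a spread in wild-type of 0.014 (SD). Rims1 minus Rims2 was 0.37 ± 0.08, against 0.64 ± 0.08 in wild-type. The first of these distances widened and the second narrowed, and Rims3 minus Rims1 overlapped, at a shift of -0.055.

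Pairs with no called member shifted as well. Cplx2 minus Cplx1 was -0.90, -0.85, -0.88 and -0.88 on the arrays labelled Mll1 Ko, against -1.08, -1.01, -1.01 and -1.02 in wild-type. The groups did not overlap. Sv2b minus Sv2a was 0.80 ± 0.04, against 0.70 ± 0.04, and Unc13c minus Unc13b was 0.67 ± 0.02, against 0.75 ± 0.01 in wild-type, and neither pair overlapped between groups. The Unc13c value is of the brightest of 7 clusters, whose differences ran from -0.080 to 0.52, and the mean of all 7 differed by 0.073 ± 0.079. Vamp1 minus Vamp2 shifted most, by -0.377, but the groups overlapped at -2.38 (Mll1 Ko replicate 1) and -2.39 (wild-type replicate 1).

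**Figure D5:**
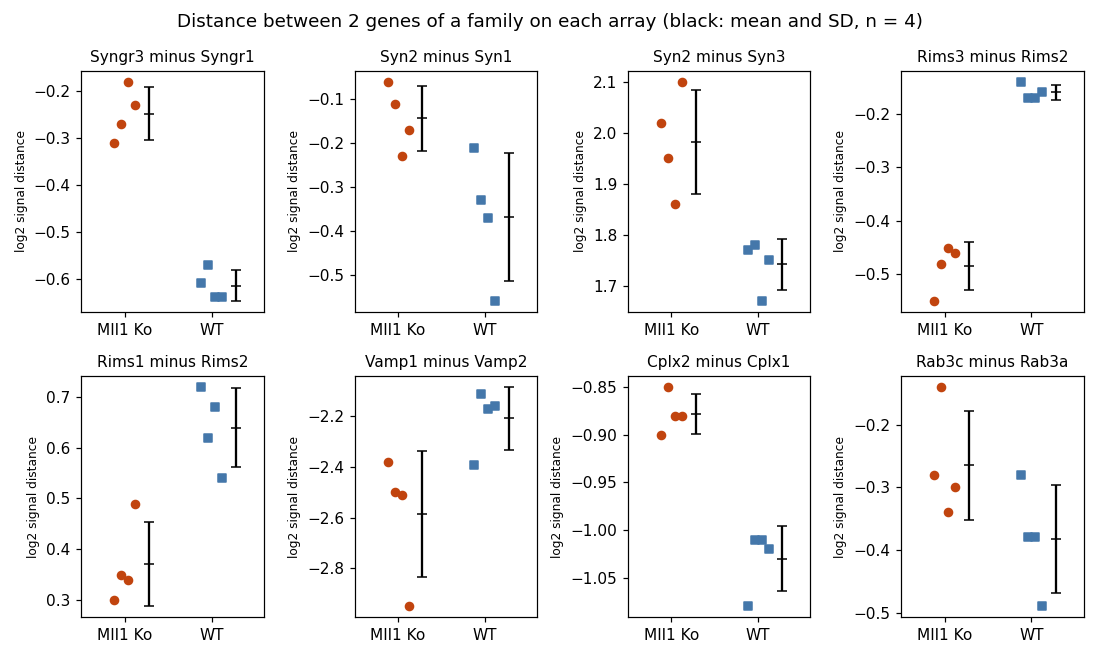
For 8 pairs of related genes, each point is the log2 signal of the first gene minus that of the second on 1 array, with arrays labelled Mll1 Ko on the left and wild-type on the right. Black bars are the mean and SD of 4 arrays. The groups are apart for Syngr3 and Syngr1, Syn2 and Syn3, both RIM pairs and the complexins, and they overlap for Syn2 and Syn1, Vamp1 and Vamp2, and Rab3c and Rab3a.

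Promoters of the called members are shown because Kmt2a is known to bind unmethylated CpG sites through its CXXC domain. Windows of 250 bases before to 50 after the transcript start were taken from RefSeq (GRCm38.p6), which held 24 of the 29 members in 29 windows. Syngr3 had no window, so its promoter is not described. Those printed are of the called members with the lowest p that had an entry, with each CG in capitals, and for Syn2 the window richer in CG of 2.
Syn2, chr6:115134652-115134951, plus strand: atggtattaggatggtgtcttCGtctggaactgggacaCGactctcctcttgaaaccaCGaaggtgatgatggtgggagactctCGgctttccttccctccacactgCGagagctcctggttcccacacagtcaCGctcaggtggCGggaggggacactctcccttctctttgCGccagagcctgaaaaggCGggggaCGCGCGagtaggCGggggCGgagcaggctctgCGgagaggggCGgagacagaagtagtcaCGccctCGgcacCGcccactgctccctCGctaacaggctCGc
Rab3c, chr13:110280157-110280456, minus strand: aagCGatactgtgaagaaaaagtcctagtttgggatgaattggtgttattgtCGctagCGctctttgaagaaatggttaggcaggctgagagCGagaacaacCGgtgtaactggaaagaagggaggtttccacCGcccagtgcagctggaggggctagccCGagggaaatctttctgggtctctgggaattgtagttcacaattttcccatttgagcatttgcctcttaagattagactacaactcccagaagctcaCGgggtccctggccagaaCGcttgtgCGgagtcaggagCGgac
Rims3, chr4:120854549-120854848, plus strand: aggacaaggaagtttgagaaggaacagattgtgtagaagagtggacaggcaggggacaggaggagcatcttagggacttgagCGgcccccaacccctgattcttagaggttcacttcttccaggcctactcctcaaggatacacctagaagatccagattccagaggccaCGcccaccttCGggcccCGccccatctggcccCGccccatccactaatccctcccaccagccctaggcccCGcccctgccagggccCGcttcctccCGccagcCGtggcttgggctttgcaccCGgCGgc
Syp, chrX:7638330-7638629, plus strand: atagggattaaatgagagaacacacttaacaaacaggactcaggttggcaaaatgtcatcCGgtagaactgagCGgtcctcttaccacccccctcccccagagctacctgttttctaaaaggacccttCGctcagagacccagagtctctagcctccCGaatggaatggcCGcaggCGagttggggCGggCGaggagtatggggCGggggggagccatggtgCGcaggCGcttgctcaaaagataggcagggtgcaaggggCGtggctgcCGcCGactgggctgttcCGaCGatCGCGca
The Syn2 window held 21 CG sites, Syp 18, and Rab3c and Rims3 11 each. CG content differed among the printed windows of genes that rose, and Rims3, which fell, equalled Rab3c, which rose. The called members with a window are few, and whether CG content went with the call or its direction was not tested. Over all member windows the median was 19, with a range of 0 to 38, against a median of 7 in all 32851 windows. Of the members that rose and had a window, Erc2 held most CG, with 31, and the second Syn2 window had 5.

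Letters of known elements were also searched on both strands. The GC box GGGCGG was in 21 of 29 member windows (72.4%) and in 35.7% of all windows, and all 4 printed windows held it. The cAMP response element TGACGTCA was in Syn1 alone of the members, against 1.79% of all windows. TATAAA was in 3 member windows, 1 of Rab3b and 2 of Sv2b (10.3%), against 13.6%. The letters TTCAGCACC, the left part of the RE1 element to which the repressor REST binds, were in the windows of Syn1, Unc13a and Ppfia3 (10.3%), against 0.37% of all windows. None of these 3 genes was called in its brightest cluster. A match describes letters and not a bound site.

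Other genes of release and recycling, 87 in all, were tested in the same fit. Of these 5 rose and 2 fell, or 5.7% and 2.3%, and the median difference was 0.045. Over all genes 5.15% rose and 5.69% fell, and over the 4797 bright genes, among them 62 of the 87, 12.5% and 1.94%. The share of rises was thus near that of all genes and below that of the bright genes. None of 20 further fusion and SNARE regulators passed. The nearest were Napb, an adaptor of the SNARE-recycling ATPase NSF (0.15 ± 0.05, adjusted p = 0.0826), and Sncb, beta-synuclein (0.19 ± 0.08, adjusted p = 0.109).

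Of 21 further active zone genes 2 rose. Ppfia4, a further liprin, had 8.60, 8.37, 8.55 and 8.58 on the arrays labelled Mll1 Ko, against 8.30, 8.28, 8.25 and 8.31 in wild-type. The groups did not overlap. It rose by 0.24 ± 0.06 (adjusted p = 0.0266) and passed after quantile normalization too (adjusted p = 0.0250), but in only 3 of 8 fits with 1 array left out. Lin7c, a scaffold partner of CASK, rose by 0.175 ± 0.049 (adjusted p = 0.0424, and 0.194 after quantile normalization).

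Of 20 further vesicle genes 1 rose and 1 fell. Slc17a6 encodes VGLUT2, the glutamate transporter of vesicles in thalamic and other subcortical neurons, and had 9.14, 8.95, 8.99 and 9.05 on the arrays labelled Mll1 Ko, against 8.65, 8.60, 8.71 and 8.81 in wild-type. The groups were apart. It rose by 0.34 ± 0.06, or 1.27-fold (adjusted p = 0.00848), and passed under all 18 alternatives. Slc17a7, the VGLUT1 gene of cortical excitatory neurons, differed by -0.028 ± 0.050 (adjusted p = 0.719). Slc18a2, the vesicle transporter of monoamines, fell by 0.22 ± 0.06 (adjusted p = 0.0425, and 0.218 after quantile normalization). Its signal was dim, at 7.42 on the arrays labelled Mll1 Ko and 7.64 in wild-type, below every array median (8.23 to 8.29).

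Of 26 genes listed for endocytosis 2 rose and 1 fell. Sh3gl3, endophilin A3, had 9.57, 9.67, 9.62 and 9.63 on the arrays labelled Mll1 Ko, against 9.18, 9.43, 9.35 and 9.23 in wild-type. The groups did not overlap. It rose by 0.325 ± 0.060 (adjusted p = 0.0104) and passed under all 18 alternatives. Clta, a clathrin light chain, rose by 0.16 ± 0.04 (adjusted p = 0.0395, and 0.268 after quantile normalization). Syndig1 fell by 0.285 ± 0.053 (adjusted p = 0.0112) and passed under all 18 alternatives. It is known as a partner of AMPA receptors and does not do what the list's name says.

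Markers of cell types were read beside these results. Of 8 excitatory neuron markers 4 fell, among them Tbr1, Emx1 and Neurod2, and the list averaged 10.58 to 10.72 on the arrays labelled Mll1 Ko, against 10.86 to 10.94 in wild-type. Camk2a, a kinase of excitatory neurons, differed by -0.018 ± 0.043 and overlapped between groups. Among 9 tested pan-neuronal markers none passed, and their mean was 11.19 to 11.24, against 11.14 to 11.24. Gad1 of 8 inhibitory and Adora2a of 8 striatal markers fell, and the other 7 of each list did not pass. The inhibitory list averaged 10.25 to 10.32 on the arrays labelled Mll1 Ko, against 10.27 to 10.37 in wild-type. Of its 8 markers 2 were higher, 5 lower and 1 unchanged. The striatal list averaged 10.418 to 10.635, against 10.474 to 10.651 in wild-type, with 3 markers higher and 5 lower. Over all genes 5.69% fell. After quantile normalization 4 excitatory, 1 inhibitory, 2 pan-neuronal and 2 striatal markers fell, against 1.58% of all genes. In the deposited values none passed of 8 astrocyte, 10 oligodendrocyte, 8 microglia and 6 endothelial markers. The part of these shifts in the results above was not tested.

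The authors' deposited table compared the same clusters, with its fold signed as wild-type over knockout. Of the 37 clusters of the members, that table gave 3 an FDR p-value under 0.05, against 4.13% of its 28944 clusters. In the authors' deposited table they were Syngr3 (signed fold -1.30, FDR 0.0139), Rab3c (-1.12, FDR 0.0205) and Syn2 (-1.19, FDR 0.04996), each higher in the knockout. Syp (FDR 0.0744), Erc2 (FDR 0.0763) and Rims3 (FDR 0.0838) did not pass there. Neither did Unc13a clusters 10579548 (FDR 0.0551) and 10579550 (FDR 0.0891).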

How the data were processed

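Total RNA was labelled with biotin by the Affymetrix WT PLUS kit, per the labels' protocols, 1 array per mouse. The deposited log2 values of 35556 transcript clusters had 2 decimals. Per the submitters' processing notes, RMA, Affymetrix Expression Console and Transcriptome Analysis Console 3.0 were used; roles are not stated. The sources used here name no array model, build or annotation. The authors' deposited comparison table holds, by its headers, an average log2 signal per genotype, a signed linear fold (a score with no value between -1 and 1), a p-value and its FDR-adjusted form. It named 25400 of 28944 clusters with 1 gene; 1436 had several and 2108 none.

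The brightest cluster of each name gave 23983 genes. They were fitted with limma 3.58.1 (lmFit, eBayes) in R 4.3.3, genotype being the only factor, with no further normalization or filter, and Benjamini-Hochberg adjustment over all genes. Errors of differences are SE and of levels SD. The design text counts 4 mice per genotype. The fit was tested on simulated data with independent normal noise for each gene. Those data held no shifts of whole arrays or of bright genes, so the test does not cover them. The members, lists and alternatives were chosen with earlier results of these data known. Named were all members, Kmt2a, of each further list up to 4 passing genes or otherwise 2 with the lowest p, and of each marker list up to 3 passing genes, with Neurod2, Camk2a and Slc17a7 added after values were seen; 1 passing marker is not reported here. Tubb3 was not tested, and Tspoap1 was matched by an older name. Same-numbered arrays did not deviate together (r of -0.008 to 0.024). With so few arrays these values cannot exclude that the numbers pair mice. Precision is limited by the number of arrays.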

Additional observations from a re-analysis of the deposited data

Results flagged for a closer look

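In 5 of 58 groups of 4 arrays, 1 array lay far from the other 3 by Dixon's criterion, which marks about 1 in 20 groups by chance. Rab3b was 9.80 on Mll1 Ko replicate 4, with the others all at 9.73. Ppfia2 was 10.48 on the same array, with the others at 10.33 to 10.35. Sv2a was 12.17 on Mll1 Ko replicate 3, with the others all at 12.22, and Unc13a was 10.99 on that array, with the others at 11.05. Cplx2 was 10.47 on wild-type replicate 1, with the others at 10.68 to 10.72. None of these genes passed the threshold in its brightest cluster. Values are deposited to 2 decimals, so ties among the other 3 arrays raise such gaps.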

How the results depend on the processing

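The 5 rises among the 29 members became 1 after quantile normalization, 1 after cyclic loess, 3 with the unmoderated test, 2 with the replicate block and 1 without wild-type replicates 1 and 4. The 1 fall became 3 after quantile normalization, cyclic loess, array weights or leaving out dim genes, 2 with the mean of all clusters (adding Unc13a) or with trend and robust (adding Rims1), and 0 with centred arrays, the unmoderated test or the replicate block. With 1 array left out the rises numbered 2 to 4 and the falls 0 to 3. The rises were 4 without wild-type replicate 3, 3 without wild-type replicate 4 and 2 without any other, and the falls were 3 without wild-type replicate 4, 1 without wild-type replicate 1 and 0 without any other. The median difference, 0.050, was -0.016 after quantile normalization and -0.019 after cyclic loess. Of the 87 further genes the 5 rises became 3 after quantile normalization, cyclic loess or the replicate block, 8 with centred arrays, 9 with trend and robust and 2 without wild-type replicates 1 and 4. Their 2 falls became 1, that of Syndig1, after quantile normalization, cyclic loess, centring, the unmoderated test or the replicate block. The same held without wild-type replicates 1 and 4, and the falls became 4 without dim genes. With 1 array left out they numbered 2 to 6 and 1 to 2, with 2 or 3 rises without any array but wild-type replicate 4 and 1 fall without any but wild-type replicate 3. The cause of these changes was not tested. Fits that left out arrays also had fewer arrays, and that part was not separated from the array removed.

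Over the 18 alternatives no called member changed sign, and 10 uncalled members did. Calls were kept in all 18 by Syngr3, in 15 by Syn2, in 8 by Rims3, in 7 by Rab3c and in 6 each by Syp and Erc2. The replicate block ended the calls of Rab3c (adjusted p = 0.0678), Syp (0.0631), Erc2 (0.0818) and Rims3 (0.0578). Whether the numbers pair mice is not known. Over all genes the counts, 1236 rises and 1364 falls, were 686 and 379 after quantile normalization and 746 and 437 after cyclic loess. They were 1843 and 782 with centred arrays, 552 and 384 unmoderated, and 1695 and 2469 with array weights. The replicate block gave 799 and 759, and leaving out wild-type replicates 1 and 4 gave 424 and 395. Trend and robust gave 1573 and 1370, and the mean of all clusters 1247 and 1386. Without dim genes they were 1510 and 1308 of 18799 genes. With 1 array left out they were 398 to 1506 and 313 to 1755, both highest without wild-type replicate 4. They were 1016 and 1287 without wild-type replicate 3, and 586 and 478 without wild-type replicate 1.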
